A study of Mus musculus with 20 samples.

Results

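The sites described here are 468 RAD21 peaks of CTCF-depleted mouse embryonic stem cells that lay away from transcript starts and carried the zinc finger protein MAZ. They were chosen by called peaks of the RAD21 WT, RAD21 ΔCTCF and MAZ ΔCTCF lists and by distance: a site among the 17912 RAD21 peaks of ΔCTCF overlapped no RAD21 peak of the WT list, overlapped a MAZ peak of the ΔCTCF list by at least 1 bp, and had its summit more than 1 kb from every transcript start of the GENCODE M21 basic set on mm10. Of the 17912 peaks, 73.8% had summits that far from a start and 11.9% overlapped MAZ. No WT counterpart was found for 10019 (55.9%), which are called relocalized, 1774 of these carried MAZ, and 1306 of the 1774 were within 1 kb of a start, which left the 468. All 12 peak lists together held 136043 peaks.

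The cells were E14 embryonic stem cells grown with LIF and 2i, in which CTCF is fused to an auxin-inducible degron. WT is this degron line without auxin, ΔCTCF is the line after 2 days of auxin, ΔMAZ is a Maz knockout derived from the same line (the titles name 1 clone, B2) without auxin, and ΔCTCF/ΔMAZ is that clone after 2 days of auxin, so that every group, WT included, carries the degron allele. ChIP-seq peaks of CTCF, MAZ and RAD21 were available as 1 list for each antibody and condition, and 8 further samples of the 20, another CTCF and MAZ sample of each condition, were not analysed here. With 1 list a group there is no replicate check and no p-value, and each interval below is a 95% interval that covers counting error over sites only.

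RAD21 is a core subunit of cohesin, the ring complex that extrudes chromatin loops. CTCF is the best known barrier to this extrusion, and its sites hold most cohesin peaks of a normal cell. MAZ is a zinc finger protein that binds G-rich DNA, mostly at promoters, and has been studied as a further factor at which cohesin can halt.

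The lists followed the genotypes. There were 6265 MAZ peaks with CTCF and MAZ both present, 6759 after auxin, and 33 in each of the MAZ knockout lists. These 33 met 0 of the 468 members in either list, which by a limit of 3 counts allows a share of up to 0.641% (background over all RAD21 ΔCTCF peaks 0.0112% in ΔMAZ and 0.00558% in ΔCTCF/ΔMAZ). CTCF peaks fell in number from 26394 in WT to 2381 in ΔCTCF. The RAD21 libraries differed in depth as read from the lowest background level of each list: the ΔCTCF library was 2.18 times as deep as WT, 1.69 times as deep as ΔMAZ and 2.34 times as deep as ΔCTCF/ΔMAZ. When pileup and background of each member were scaled down to the WT depth, 368 of the 468 still exceeded the lowest -log10 p of the WT list and 73 (15.6%) exceeded its 5th percentile, so for the weaker members a missing WT peak and a lower WT depth cannot be told apart.

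The DNA under the MAZ summits of members is shown first for sites with the MAZ core, GGGAGGG or its complement CCCTCCC, and then for a pair without it. The sites were drawn from the strongest members and those nearest to genes of 7 lists, and they show how differently the G-rich sequence is arranged. Each window is 121 bases of mm10, plus strand, centred on the MAZ summit, with the core in capitals. Gm12974 had the highest MAZ signal of all members and 3 cores, as did the site beside Spry2. Platr7 and Fos had 2, and Foxi3, Arid5b, Esrrb, Tdgf1 and Pou5f1 had 1.
Gm12974 (chr4:133814141-133814261): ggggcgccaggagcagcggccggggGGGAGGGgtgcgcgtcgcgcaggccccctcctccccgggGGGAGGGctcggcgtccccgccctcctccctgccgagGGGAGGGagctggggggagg
Spry2 (chr14:105897813-105897933): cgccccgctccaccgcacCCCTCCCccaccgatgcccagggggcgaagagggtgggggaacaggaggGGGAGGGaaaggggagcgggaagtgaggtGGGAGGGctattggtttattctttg
Platr7 (chr10:84554726-84554846): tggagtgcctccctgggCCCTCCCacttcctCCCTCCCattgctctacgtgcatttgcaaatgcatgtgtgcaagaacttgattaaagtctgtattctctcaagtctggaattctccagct
Fos (chr12:85455270-85455390): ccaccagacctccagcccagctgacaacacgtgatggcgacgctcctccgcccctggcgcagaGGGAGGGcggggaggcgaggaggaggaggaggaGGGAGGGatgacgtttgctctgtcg
Foxi3 (chr6:70964022-70964142): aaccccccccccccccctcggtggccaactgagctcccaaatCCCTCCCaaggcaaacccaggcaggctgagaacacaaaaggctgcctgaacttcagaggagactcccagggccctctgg
Arid5b (chr10:68231737-68231857): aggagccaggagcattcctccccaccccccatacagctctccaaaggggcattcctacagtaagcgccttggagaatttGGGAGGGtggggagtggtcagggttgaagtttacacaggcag
Esrrb (chr12:86504203-86504323): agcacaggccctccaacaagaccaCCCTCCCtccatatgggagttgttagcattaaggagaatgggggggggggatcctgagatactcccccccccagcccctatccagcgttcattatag
Tdgf1 (chr9:110947276-110947396): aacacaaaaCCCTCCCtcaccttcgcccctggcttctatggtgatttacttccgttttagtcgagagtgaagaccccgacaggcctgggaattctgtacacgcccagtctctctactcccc
Pou5f1 (chr17:35504016-35504136): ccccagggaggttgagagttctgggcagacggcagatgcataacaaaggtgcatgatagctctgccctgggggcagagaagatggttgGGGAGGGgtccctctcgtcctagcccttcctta
Tmem51os1, no core (chr4:142070858-142070978): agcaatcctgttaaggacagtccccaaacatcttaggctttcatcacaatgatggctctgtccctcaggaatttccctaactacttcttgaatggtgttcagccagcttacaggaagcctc
Tet2, no core (chr3:133525242-133525362): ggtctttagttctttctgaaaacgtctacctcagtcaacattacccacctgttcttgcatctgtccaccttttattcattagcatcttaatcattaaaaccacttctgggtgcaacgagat

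The members were mostly modest RAD21 peaks. Strength is given as fold enrichment, the reads piled up at the summit plus 1 over the local background plus 1. It ranged from 2.46 to 9.53 with a median of 4.53, which put the median member at percentile 40.7 of the whole ΔCTCF list. The pileup at the summit ran from 12 to 44 with a median of 20, over a background of 3.20 to 7.48. These values chose the members in part and are given as a description. The 5 members just inside the distance limit lay 1013 to 1044 bp from a start with fold enrichments of 3.57 to 5.24, and the 5 relocalized MAZ sites just outside it lay at 958 to 1000 bp with 3.57 to 5.91.

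MAZ and RAD21 summits were close to each other, which follows in part from the rule, since the peaks had to overlap. The median separation was 87 bp at members, against 98 bp at the relocalized MAZ sites near starts and 97 bp over all RAD21 ΔCTCF peaks with MAZ. The summits were within 100 bp in 258 members (55.1%), and the MAZ summit lay inside the RAD21 peak in 369 (78.8%). The 468 members met 465 separate MAZ peaks. MAZ fold enrichment in ΔCTCF ran from 3.52 to 28.5 at members with a median of 5.80, against a median of 6.50 at the relocalized MAZ sites near starts.

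By position the members were split between gene bodies and the space between genes. The summit was outside every annotated gene in 221 members (47.2%, interval 42.7 to 51.7), in an intron in 217 and in an exon in 30. The median distance to the nearest start was 9479 bp, 226 members were over 10 kb away and 26 over 50 kb, and the farthest, 181774 bp from Gm34794, was also among the strongest. Members lay upstream of the nearest start in 228 cases. The nearest start belonged to a protein-coding gene in 264, a lincRNA in 61, a processed pseudogene in 41, an antisense RNA in 30 and a miRNA in 21. Chromosome X held 1 member (0.214%, interval 0.0377 to 1.20) and 0.944% of all ΔCTCF RAD21 peaks, a share inside that interval.

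Few members coincided with CTCF. A CTCF peak of WT overlapped 9 members (1.92%, interval 1.01 to 3.61) against 41.1% of all RAD21 ΔCTCF peaks, a CTCF peak of ΔMAZ 11 (background 41.1%), one of ΔCTCF 3 (background 11.9%) and one of ΔCTCF/ΔMAZ 2 (background 13.1%). Of the 135 distal RAD21 ΔCTCF peaks with MAZ that did overlap RAD21 in WT, 43.7% overlapped a CTCF peak of WT. The rule excluded such sites, so the low share at members follows in part from their choice. The WT share was 3.40% when a gap of up to 500 bp counted as overlap and 5.48% when scaled to the depth of RAD21 WT with the 5th percentile limit. By overlap of 1 bp it was 2.83% at MAZ-bound relocalized sites near starts and 2.93% at distal relocalized sites without MAZ. The median member was 13109 bp from the nearest CTCF peak of WT and 28391 bp from the nearest RAD21 peak of WT that was no longer called in ΔCTCF, and 109 members (23.3%) were within 10 kb of such a lost peak.

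MAZ was already called in WT at 248 of the 468 members (53.0%, interval 48.5 to 57.5). This was below the 61.6% found over all MAZ ΔCTCF peaks and below the 70.3% of the MAZ-bound relocalized sites near starts, a difference of -17.3 percentage points (interval -22.4 to -12.2). Of the 6759 MAZ ΔCTCF peaks, 1799 had a distal summit. The share of members was above the 39.6% of the 1177 distal MAZ ΔCTCF peaks without RAD21 in WT or ΔCTCF. The MAZ WT library was 2.65 times as deep as the MAZ ΔCTCF library by the same background measure. Among the members the share rose with MAZ strength in ΔCTCF, from 32.1% in the weakest of 3 equal groups (MAZ fold enrichment 3.52 to 5.42) to 48.1% and then 78.8% in the strongest (6.58 to 28.5). It was 60.4% within 5 kb of a start and 46.2% beyond 25 kb, a difference of -14.2 points (interval -26.0 to -1.85). Members with and without the WT peak had the same median RAD21 fold enrichment, 4.53.

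The 5 members of highest MAZ fold enrichment had RAD21 values of 3.80 to 5.48 in ΔCTCF. Both measures had to reach a called peak for a site to be a member, so they are given as a description. Gm12974, whose site lies 2.3 kb upstream of that non-coding gene and 57.3 kb upstream of the chromatin remodeller gene Arid1a, had MAZ fold enrichments of 20.9 in WT and 28.5 in ΔCTCF and a RAD21 fold enrichment of only 3.81. The site 27.5 kb into Gabrp, a GABA receptor subunit gene, had 16.5, 22.4 and 5.28 in the same order, and Gm37078 had 14.2, 22.4 and 3.80. Lax1, which encodes an adaptor of lymphocyte receptors, had 16.7, 20.2 and 5.47 at a site 4.5 kb upstream of its start. Mir7090, in an intron of Ulk4, rose most between the MAZ lists, from 5.93 to 19.0, with RAD21 at 5.48. Of these 5 strongest MAZ sites, Lax1 had a RAD21 peak in ΔMAZ (4.33) and in ΔCTCF/ΔMAZ (4.46), beside shares of 18.8% and 19.2% over all members and 47.4% and 29.5% over all ΔCTCF RAD21 peaks.

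RAD21 in the MAZ knockout clone was read at the members next. In ΔCTCF/ΔMAZ a RAD21 peak overlapped 90 members (19.2%, interval 15.9 to 23.0), where the background over all RAD21 ΔCTCF peaks was 29.5%. With as many of the strongest peaks of each RAD21 list as the shortest, ΔCTCF/ΔMAZ, holds (6400), the rule gave 143 members, and 51.0% of these (interval 42.9 to 59.1) were called, against 61.9% of all ΔCTCF peaks kept. In ΔMAZ, where CTCF is present, a peak overlapped 88 members (18.8%, interval 15.5 to 22.6; background 47.4%). Reciprocal overlap of at least 50% gave 11.0% in ΔCTCF/ΔMAZ (24.2% over all peaks) and 10.7% in ΔMAZ (43.1% over all). Scaling to the depth of RAD21 WT with the 5th percentile limit, chosen after seeing the data, gave 37.0% (65.2% over all) and 42.5% (86.4% over all) in the same order. By overlap of 1 bp, the ΔMAZ share of 18.8% follows in part from the choice of members. WT, the other condition with CTCF, had none of them by the rule, while the background includes sites with RAD21 in WT. At distal relocalized sites without MAZ, chosen by the same lack of a WT peak, the ΔMAZ share by overlap of 1 bp was 9.52%. Both lists held 36 members, which is 40.0% of the 90 and 40.9% of the 88. A further 54 members were in ΔCTCF/ΔMAZ only, 52 in ΔMAZ only, and 326 (69.7% of members) in neither. Over all ΔCTCF RAD21 peaks 24.6% were in both, 4.91% in ΔCTCF/ΔMAZ only, 22.8% in ΔMAZ only and 47.7% in neither, against 7.69%, 11.5%, 11.1% and 69.7% of members. The median fold enrichment of the 90 was 5.17 in ΔCTCF and 5.36 in ΔCTCF/ΔMAZ, with 55 higher in the latter, and that of the 88 was 5.03 in ΔCTCF and 5.02 in ΔMAZ, with 36 higher. Within those lists the called members were weak, at a median percentile of 25.9 in ΔCTCF/ΔMAZ and 11.1 in ΔMAZ. Only called peaks enter these medians, and fold enrichment depends on depth.

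**Figure D1:**
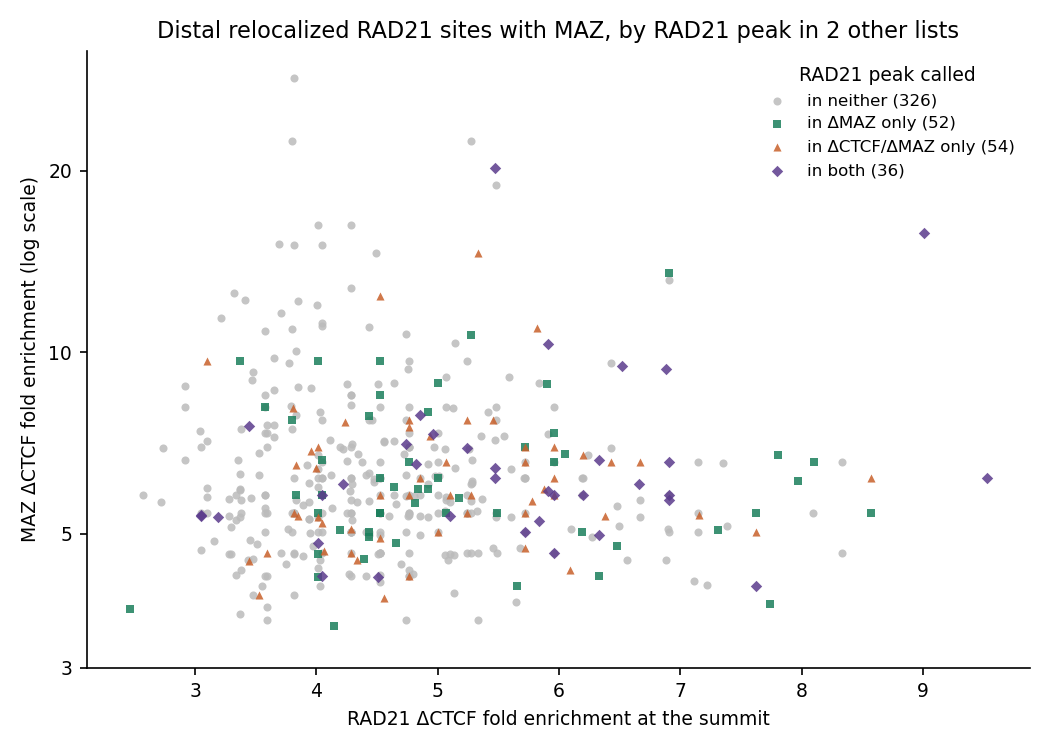
Each point is 1 of the 468 members, with its RAD21 fold enrichment in ΔCTCF on the x axis and its MAZ fold enrichment in ΔCTCF on the y axis (log scale); colour and shape show whether a RAD21 peak was called there in ΔMAZ (52 only there), ΔCTCF/ΔMAZ (54 only there), both (36) or neither (326). The sites called in neither list span the whole MAZ range up to 28.5.

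The share called followed RAD21 strength. In 5 equal strength groups of the whole ΔCTCF list, 10.2% of the members in the weakest group and 14.0%, 17.2%, 34.6% and 35.7% in the following groups had a peak in ΔCTCF/ΔMAZ, against 5.92%, 10.3%, 15.9%, 31.8% and 83.5% over all ΔCTCF RAD21 peaks of the same groups. In the first 4 groups, in which all but 14 members lay, the interval of the members' share included the share over all peaks, and in the strongest group the members were below it. In ΔMAZ the members had 8.33%, 14.9%, 18.0%, 28.8% and 64.3%, against 16.5%, 24.0%, 38.0%, 62.3% and 96.3% over all, below it in each group. The strongest group held 14 members, so its intervals were wide (16.3 to 61.2 and 38.8 to 83.7). The part of depth in these shares was not tested. Scaled to the depth of ΔCTCF/ΔMAZ, 297 members would pass the lowest -log10 p of that list. Of these, 69 (23.2%, interval 18.8 to 28.4) had a peak there, against 39.6% over all ΔCTCF RAD21 peaks that would pass. Of the 124 that would pass its 5th percentile, 40 did (32.3%, interval 24.7 to 40.9), against 57.7% over all ΔCTCF RAD21 peaks that would pass. For ΔMAZ, 435 members would pass the lowest -log10 p and 84 of these had a peak (19.3%, interval 15.9 to 23.3), against 49.3% over all. By the 5th percentile of ΔMAZ, 185 members would pass and 48 had a peak (25.9%, interval 20.2 to 32.7), against 73.2% over all.

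The members were set beside MAZ-bound relocalized sites near starts to ask whether a nearby start goes with the outcome. In ΔCTCF/ΔMAZ the shares were 19.2% and 16.8%, which did not differ beyond counting error, with a difference of 2.39 points (interval -1.55 to 6.66) and a Mantel-Haenszel odds ratio, taken over the 5 strength groups, of 0.983 (0.740 to 1.30). In ΔMAZ the members were called more often, 18.8% against 11.8%, with an odds ratio of 1.49 (1.10 to 2.00). Compared with the 6000 distal relocalized sites without MAZ, the members were called more often in both. The shares were 19.2% against 8.32% in ΔCTCF/ΔMAZ, with an odds ratio of 2.31 (1.79 to 2.99), and 18.8% against 9.52% in ΔMAZ, with an odds ratio of 2.00 (1.55 to 2.59). The ratios describe sites of single libraries.

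**Figure D2:**
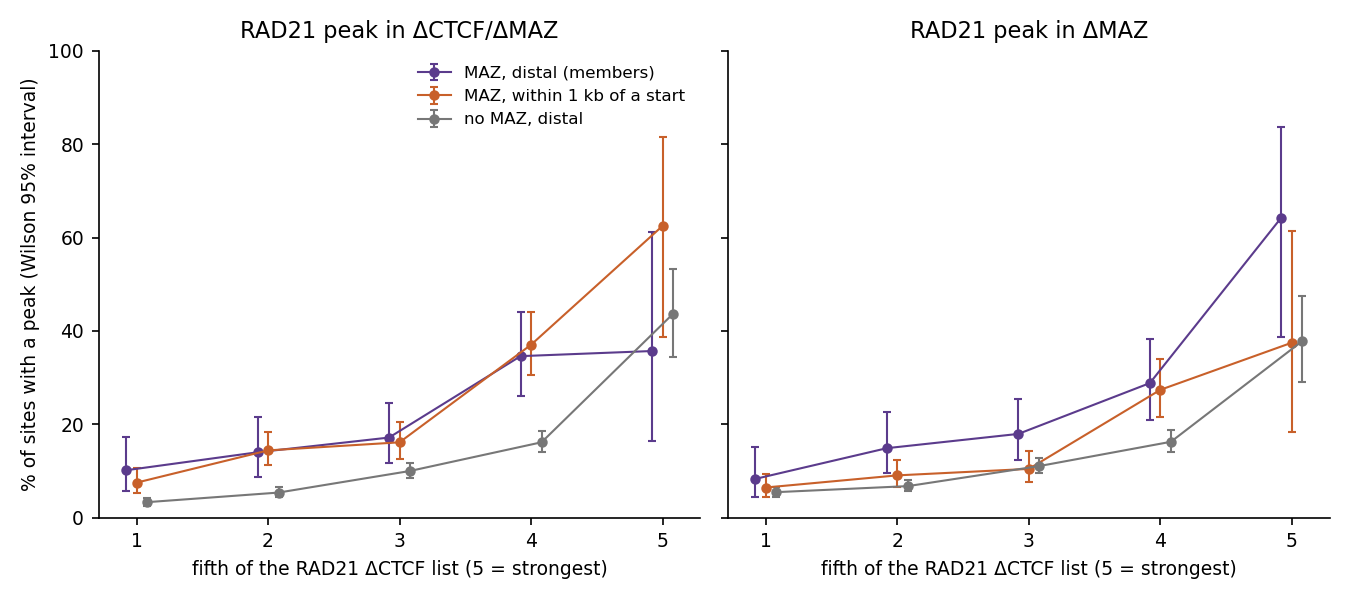
The y axis gives the percent of sites with a RAD21 peak in ΔCTCF/ΔMAZ (left) or ΔMAZ (right), and the x axis the strength group of the RAD21 ΔCTCF list, 5 being the strongest; points are shares of members, of MAZ-bound relocalized sites near starts and of distal relocalized sites without MAZ, with Wilson 95% intervals. Shares rise with strength in each class, and the members lie above the distal sites without MAZ except in group 5 on the left, where 5 of 14 members (35.7%) stand beside 43.7%.

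Within the members, the shares called differed by less than counting error with MAZ in WT in both lists, and with the strength of MAZ in ΔCTCF/ΔMAZ. With a MAZ WT peak 20.2% were called in ΔCTCF/ΔMAZ and without it 18.2%, a difference of 1.98 points (interval -5.24 to 9.06), and in ΔMAZ the shares were 19.8% and 17.7% (difference 2.03, interval -5.13 to 9.05). The strongest MAZ group had 18.6% in ΔCTCF/ΔMAZ and the weakest 19.9% (difference -1.28, interval -10.0 to 7.49). In ΔMAZ the shares over the 3 MAZ strength groups were 17.3%, 19.2% and 19.9%, a difference that was not tested. In ΔCTCF/ΔMAZ sites between genes had 18.1% and intronic sites 20.7% (difference -2.64, interval -10.1 to 4.78), and in ΔMAZ 19.0% and 20.3% (difference -1.27, interval -8.73 to 6.18). Each interval leaves room for a difference of several points in either direction.

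Taking MAZ as the starting point, 1652 MAZ ΔCTCF peaks were distal and free of RAD21 in WT, and 475 of them (28.8%, interval 26.6 to 31.0) had a RAD21 peak in ΔCTCF. Near starts the share was 27.9%. By MAZ fold enrichment it was 21.8% in the weakest of 5 equal groups and 33.5% in the strongest. It was 35.3% with a MAZ peak in WT and 23.7% without. These shares rest on the RAD21 calls that chose the members and are a description, and MAZ in WT went with MAZ strength, as given above. MAZ peaks with a member were called in WT in 53.1% and the 1177 distal MAZ peaks without RAD21 in 39.6%, and their median MAZ fold enrichments were 5.80 and 5.68. RAD21 peaks in ΔCTCF/ΔMAZ met 18.1% of the former and 9.41% of all MAZ ΔCTCF peaks.

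**Figure D3:**
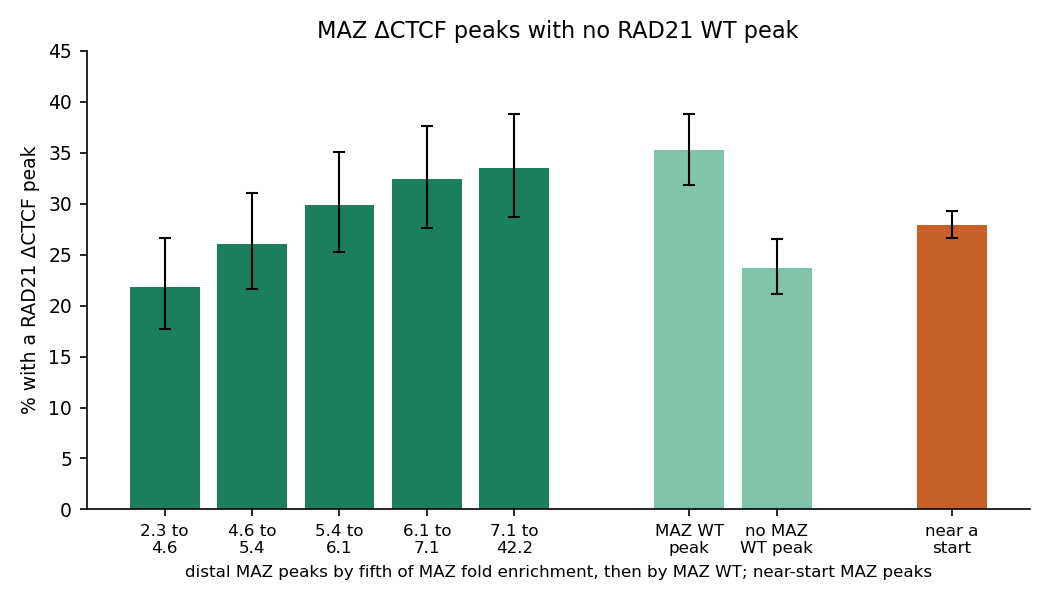
Bars give the percent of MAZ ΔCTCF peaks without RAD21 in WT that had a RAD21 ΔCTCF peak, with Wilson 95% intervals: distal peaks in 5 equal groups of MAZ fold enrichment (21.8% to 33.5%), distal peaks with and without a MAZ peak in WT (35.3% and 23.7%), and peaks within 1 kb of a start (27.9%).

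The strongest members were spread over unrelated loci. Gm19719 (chr5:149320496-149321234, mm10), between genes and 33.0 kb from that gene's start, had the highest RAD21 fold enrichment, 9.53, and kept peaks in ΔMAZ (4.69) and ΔCTCF/ΔMAZ (5.49) with MAZ at 6.19 in ΔCTCF and no MAZ peak in WT. Tmem51os1 (chr4:142070817-142071474), in an intron of Tmem51, had 9.01, 5.40 and 6.40, and strong MAZ in both WT (20.1) and ΔCTCF (15.8). Foxi3, a forkhead gene of ectoderm development, had a site 7.6 kb downstream of its start at 8.58, with no ΔMAZ peak and 7.78 in ΔCTCF/ΔMAZ. Gm34794 (8.58), Akap12 (8.10, a kinase anchoring protein gene), Platr7 (7.97, a non-coding gene expressed in pluripotent cells) and Arid5b (7.81, a DNA-binding protein gene) had peaks in ΔMAZ of 4.63, 5.05, 6.12 and 4.63 and none in ΔCTCF/ΔMAZ. Gm12210 (8.34), Sult3a2 (8.34, a sulfotransferase gene) and Fam189a1 (8.09) were called in neither. Of these 10, 5 carried MAZ in WT, 6 had RAD21 in ΔMAZ and 3 had it in ΔCTCF/ΔMAZ, while over all peaks of the strongest group, in which the 10 lay, 96.3% and 83.5% had it.

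The members of highest RAD21 in ΔCTCF/ΔMAZ shared Foxi3 with these 10. Gm26772, whose site lies in an intron of Zmiz1, reached 10.1 from 5.96 in ΔCTCF, and Gm22107, in an intron of Myh9 (a non-muscle myosin gene), reached 9.53 from 5.47. Foxi3 and Mrps23 (a mitochondrial ribosome gene, the site in an intron of Cuedc1) had 7.78. Zbtb24, Gm26615 and Gm13062 shared the fifth place at 7.32, and Gm13062 had been among the weakest in ΔCTCF, at 3.10 with a pileup of 12. These sites were picked for their ΔCTCF/ΔMAZ values, so a higher value there than in ΔCTCF follows from the choice.

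Near genes of pluripotency there were 6 members (1.28%) at 5 of the 30 listed genes, against 0.396% of all RAD21 ΔCTCF peaks. The lists hold 30 pluripotency, 19 early lineage, 33 Polycomb developmental regulator, 36 signalling, 30 chromatin and cohesin, 30 immediate early and 30 housekeeping genes, and they gave 25 members at 18 genes. Tet2, which oxidises 5-methylcytosine, held the strongest in an intron 19.4 kb from its start (chr3:133524417-133525318). Its RAD21 fold enrichment was 7.62 in ΔCTCF, 5.49 with auxin in the knockout clone and 4.28 in that clone without auxin, and MAZ was at 4.10 in ΔCTCF with no peak in WT. Esrrb, an orphan nuclear receptor of the naive network, held a pair in its introns. The site 34.4 kb from the start (chr12:86504293-86504973) had RAD21 at 7.31 in ΔCTCF and 4.66 in ΔMAZ and MAZ at 5.08 in ΔCTCF only. The other, 28.8 kb from the start, had RAD21 at 3.29 in ΔCTCF only, with MAZ at 2.77 in WT and 5.14 in ΔCTCF. Tdgf1, the Nodal co-receptor, had a site 1.3 kb upstream (chr9:110947257-110947705) with RAD21 at 5.14 in ΔCTCF only and MAZ at 6.44 in WT and 10.3 in ΔCTCF. Pou5f1, which encodes OCT4, had one 2.0 kb upstream (chr17:35503949-35504159) with RAD21 at 2.92, near the bottom of the list, and MAZ at 6.90 and 8.80. Tcl1, a coactivator of AKT kinase, had 3.59 with MAZ at 4.71 and 7.35. The 2 strongest RAD21 sites of this list had no MAZ peak in WT, and RAD21 was called in a MAZ knockout list at Tet2 and the farther Esrrb site alone.

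By protein-coding starts only, 3 more sites near this list were seen, named here after their values were known. The site nearest to Sox2 among coding genes, 95047 bp downstream, had RAD21 at 6.91 after CTCF depletion, 5.41 in ΔMAZ and 5.95 in ΔCTCF/ΔMAZ and MAZ at 4.50 in WT and 6.58 in ΔCTCF. That nearest to Klf4, 68.3 kb downstream, had 4.51, 4.35 and 4.24, and that nearest to Dppa3, 36.7 kb downstream, had 6.27 in ΔCTCF only.

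Signalling genes had 6 members (1.28%) at 4 genes, against 0.402% of all peaks. Socs3, which restrains LIF signalling, had a site 6.3 kb upstream with RAD21 at 6.48 and MAZ at 5.56 in ΔCTCF, and a second 5.5 kb downstream of its start with 3.65 and 8.66 and a MAZ WT peak of 3.11. Etv5, an ETS factor downstream of FGF signalling, had a pair of intronic sites, 23.4 and 24.5 kb from its start, with RAD21 at 6.09 and 4.72. Of these, only the first had a peak in ΔCTCF/ΔMAZ, at 5.59. Lefty2, a Nodal inhibitor, had 4.74 with MAZ at 8.92 in WT and 10.7 in ΔCTCF, and Spry2, an inhibitor of receptor tyrosine kinase signalling, had 3.38 with MAZ at 11.5 in WT and 5.42 in ΔCTCF.

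The other lists gave 1 to 4 sites each, also at larger shares of members than of all ΔCTCF RAD21 peaks: 0.427% against 0.173% for Polycomb regulators, 0.214% against 0.100% for early lineage, 0.641% against 0.117% for chromatin and cohesin, 0.641% against 0.167% for immediate early and 0.855% against 0.173% for housekeeping genes. By the nearest start the share of members was the higher one for all 7 lists, housekeeping genes included, and by the nearest protein-coding start it was so except for early lineage genes, at 0.214% (1 member) against 0.251%. These shares rest on 1 to 6 members a list and carry no interval. At MAZ-bound relocalized sites near starts the shares by nearest start were 0.766% for housekeeping, 0.536% for chromatin and cohesin and 0.536% for immediate early genes. They were 0.842% for signalling, 0.613% for pluripotency and 0.0766% each for Polycomb regulators and early lineage. Among Polycomb developmental regulators, the homeobox gene Msx2 had sites on either side of its start at 4.92 and 4.29, the latter called at 4.12 in ΔCTCF/ΔMAZ. Zic5, an early neural zinc finger gene, had an exonic site at 3.57. Among chromatin and cohesin genes, Pds5a, which encodes a regulator of cohesin release, had a site 26.8 kb upstream at 4.29, and Patz1, a zinc finger gene related to Maz, had intronic sites at 3.77 and 3.46 with MAZ at 7.07 and 6.96 in WT. The immediate early genes Ier2 and Fos had sites at 5.68, 5.24 and 4.43, of which the Ier2 site 12.3 kb from the start was called at 4.58 in ΔCTCF/ΔMAZ. The housekeeping gene Actb had 2 RAD21 summits, at 4.29 and 4.01, on a single MAZ peak of 15.5 in WT and 16.3 in ΔCTCF, and Ptma and Gapdh had 4.01 and 3.59. Over the 25 sites, MAZ was in the WT list at 17 (53.0% over all members), and RAD21 was called at 2 in ΔMAZ (18.8% over all members, background 47.4%) and at 4 in ΔCTCF/ΔMAZ (19.2%, background 29.5%).

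**Figure D4:**
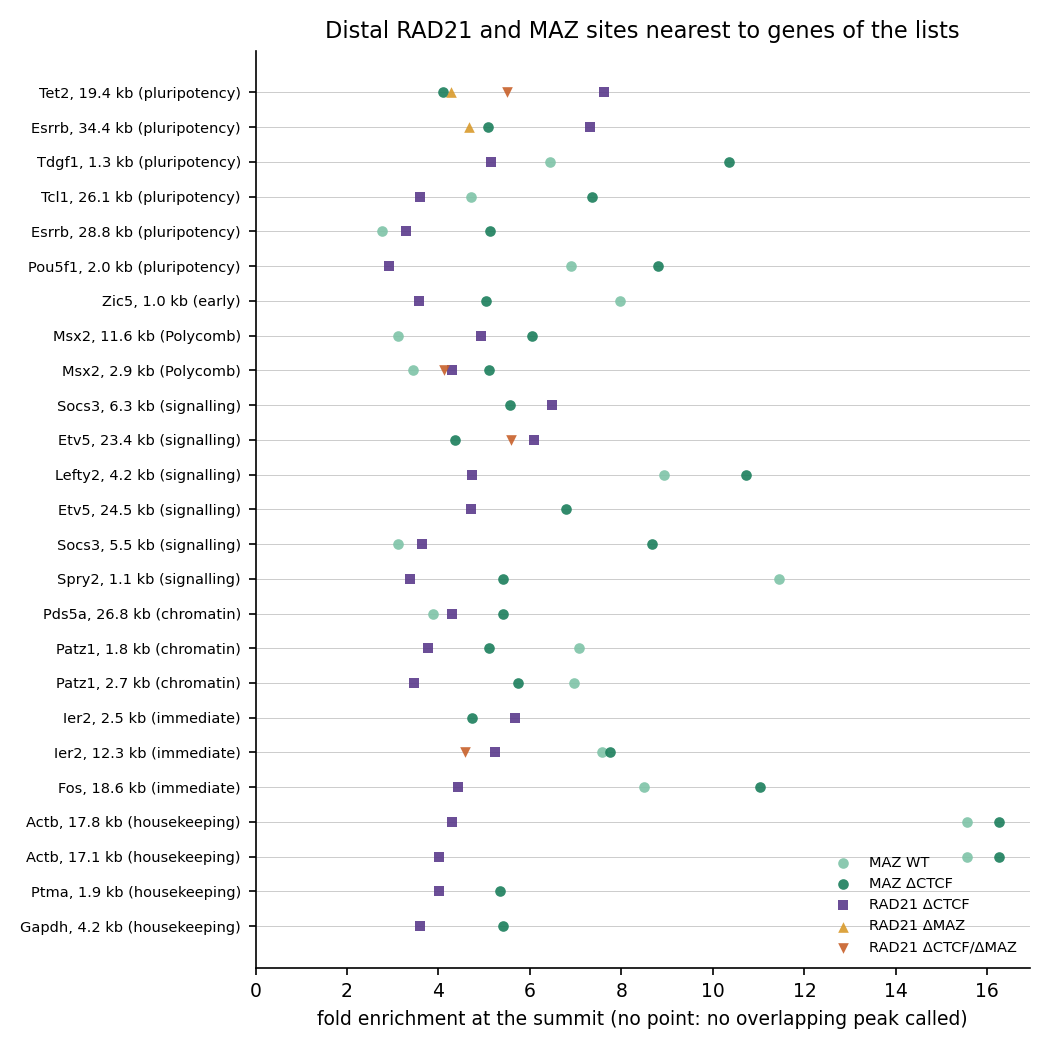
Fold enrichment (x axis) at the 25 members whose nearest start belongs to a listed gene, 1 row each with the distance to that start; points are MAZ in WT and ΔCTCF and RAD21 in ΔCTCF, ΔMAZ and ΔCTCF/ΔMAZ, and a missing point means that no peak was called. RAD21 ΔCTCF values run from 2.92 at Pou5f1 to 7.62 at Tet2, and RAD21 points of the MAZ knockout lists are present in few rows.

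Members were rarely grouped. The 468 had 429 different nearest genes, and 55 members (11.8%) were within 10 kb of another, in 27 clusters of which 26 held 2 and 1, at Tnrc18, held 3. Tnrc18 was nearest to 4 members, with RAD21 between 3.05 and 4.81 and MAZ between 4.71 and 8.73. Cic, a repressor of ETS factor genes, was nearest to 3 members at 5.49, 4.00 and 3.10. Of these 7, 0 were called in a MAZ knockout list, a small number beside which the shares over all members were 18.8% in ΔMAZ and 19.2% in ΔCTCF/ΔMAZ and those over all peaks 47.4% and 29.5%. Mir290a, the first gene of a miRNA cluster abundant in embryonic stem cells, had 2 members upstream, of which the one 6.4 kb away (chr7:3212004-3212362) was called at 6.41 in ΔCTCF/ΔMAZ.

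The MAZ core was present in 141 of the 468 windows that reach 100 bases to each side of the RAD21 summit (30.1%, interval 26.1 to 34.4). It was present in 9.51% of windows 1000 bases to either side, a difference of 20.6 points (interval 16.1 to 25.3), in 28.3% at MAZ-bound relocalized sites near starts, in 10.4% at distal relocalized sites without MAZ and in 11.2% over all ΔCTCF RAD21 summits. Centred on the MAZ summit the share was 45.9% (interval 41.5 to 50.5). The core was most frequent within 50 bp of that summit, at 20.1 per 100 sites in a 50 bp bin, against 11.8 at the RAD21 summit. It was counted wherever the letters occurred, and 35 windows held 2 or more. The windows at members were richer in G and C (median 55.2%) than those 1000 bases away (47.8%), and the part of base composition in the motif shares was not tested.

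**Figure D5:**
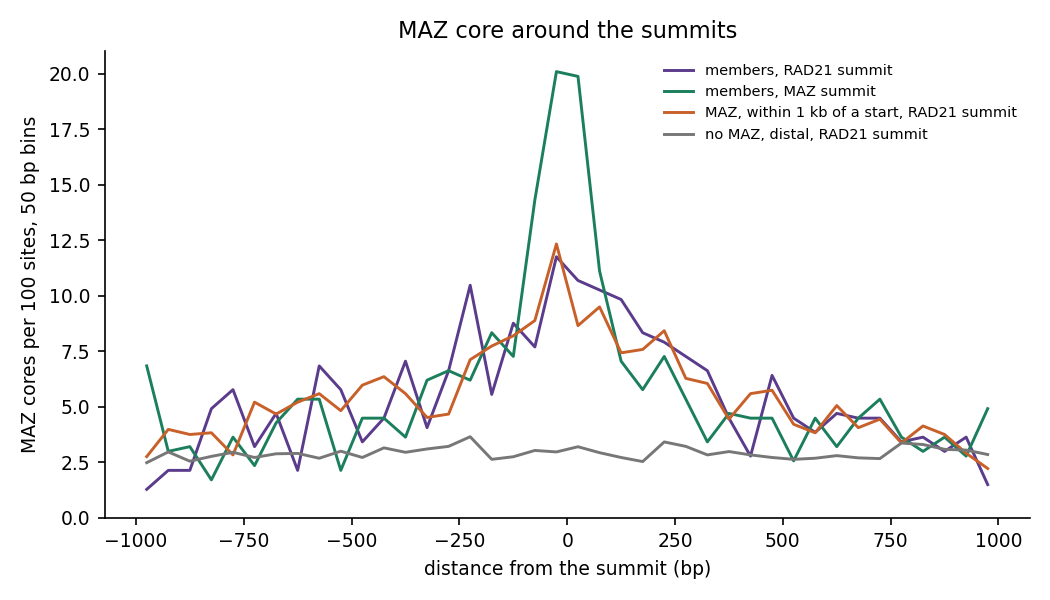
MAZ cores per 100 sites (y axis, 50 bp bins) by distance from the summit (x axis, bp) for members centred on RAD21 or on MAZ, for MAZ-bound relocalized sites near starts and for distal relocalized sites without MAZ. The curve of members peaks at 20.1 on the MAZ summit and 11.8 on the RAD21 summit, and the sites without MAZ stay at or below 3.65.

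The core was more frequent at members with MAZ in WT. These also had stronger MAZ in ΔCTCF (median fold enrichment 6.58 against 5.42) and RAD21 summit windows richer in G and C (median 57.2% against 53.7%). The part of either in the core shares was not tested. At the RAD21 summit the core was present in 36.3% of members with a MAZ WT peak and 23.2% of those without, a difference of 13.1 points (interval 4.80 to 21.1), and at the MAZ summit in 55.2% and 35.5%. It was present in 30.0% of members called in ΔCTCF/ΔMAZ and 30.2% of the others, a difference of -0.159 points (interval -9.91 to 10.9). In ΔMAZ 15.6% of members with the core and 20.2% of those without were called, a difference of -4.58 points (interval -11.5 to 3.38). The intervals leave room for differences in either direction.

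Several other motifs differed in share between members and sites near starts, and so did base composition. The median window was 68.7% G and C with 19 CpG near starts and 55.2% with 4 CpG at members, and the part of this in the motif shares was not tested. The GC box GGGCGG was in 32.3% of member windows, 68.1% of near-start windows, 9.33% of windows at distal sites without MAZ and 19.8% over all ΔCTCF RAD21 summits. AAGGTCA, bound by ESRRB, was in 8.55% of members against 1.30% near starts, 10.2% at distal sites without MAZ and 5.80% over all, and 4.81% of the windows 1000 bases from members. CATTGT, bound by SOX factors, was in 11.8%, 4.29%, 15.2% and 10.1% in the first 4 of these sets, and the octamer ATGCAAAT, bound by OCT4, in 2.78%, 0.766%, 3.15% and 1.87%. The CTCF core AGGGGGC or AGATGGC was in 10.9% of members, 18.2% near starts, 7.07% at distal sites without MAZ and 18.6% over all. TGANTCA (AP-1) was in 5.77% of members and CACGTG (E-box) in 5.56%, against 5.20% and 4.35% over all, GGGGGG in 16.5% against 7.01%, and AAAAAAAA, counted as a control, in 2.56% against 4.39%. In the windows 1000 bases from members AAAAAAAA was in 9.40%, a difference of -6.84 points (interval -9.15 to -4.31), so the control motif differed too, and GGGGGG was in 13.1% (difference 3.31, interval -0.544 to 7.46). Near starts AP-1 was in 1.91%, a difference of 3.85 points (interval 1.87 to 6.42). The E-box was there in 6.74%, GGGGGG in 18.7% and AAAAAAAA in 2.83%, and for these 3 the interval of the difference from members included 0. All motifs were searched on both strands, and a base could belong to more than 1 of them. Repeat-masked bases made up a mean of 12.04% of member windows and 26.3% of those 1000 bases away.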

How the data were processed

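Chromatin of E14 cells was sonicated, a Drosophila spike-in was added, and CTCF, MAZ and RAD21 were immunoprecipitated. Per the study's methods and the submitters' processing notes the authors aligned reads with Bowtie2 to mm10, removed duplicates and called peaks with MACS on each library. The input control is not given in the sources used here. The deposited peak lists give each summit's fold enrichment (a ratio over local background), the -log10 p, the -log10 q and a display score, which was not used. The whole-number pileup and the background were recovered from fold enrichment and p for all 136043 peaks (tolerance 0.001 in -log10 p). Depth is not given by the files, so each library's lowest background divided by its smallest peak width served as a relative depth. Depth could also differ by spike-in, which was not used.

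Members were found by 1 bp overlap, with starts, exons and genes from GENCODE M21. Nearest genes are those of the nearest start. Shares carry Wilson 95% intervals, differences Newcombe intervals, and Mantel-Haenszel odds ratios were stratified by 5 equal groups of RAD21 ΔCTCF fold enrichment. Named sites were the 10 of highest RAD21 and 5 of highest MAZ fold enrichment in ΔCTCF, the 5 highest in ΔCTCF/ΔMAZ with ties, up to 6 a list nearest to listed genes, and genes nearest to at least 3 members. One gene was left out of a list and is not reported here. The members, lists, motifs and rules were chosen with earlier results of these data known. Sequences are from the RefSeq GRCm38 genome, which is mm10. Python 3.11.15, pandas 2.3.3, SciPy 1.17.1 and pysam 0.24.0 were used, and overlaps were checked against bedtools on simulated intervals. Alternatives changed the overlap, the q limit, the distance limit, the starts, the MAZ list, the depth, the number of peaks and the window.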

Additional observations from a re-analysis of the deposited data

How the results depend on the processing

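Of 102 values recomputed for the 10 results under 15 alternatives, 76 stayed within 1.5 times the reported count or inside the reported interval and 26 moved. Counting 1 summit per interval changed nothing, since no interval held several. With reciprocal overlap of at least 50%, 299 members remained by count, 43.5% with MAZ in WT, 11.0% called in ΔCTCF/ΔMAZ, 10.7% in ΔMAZ and 51.8% between genes. With -log10 q of at least 5 in every list there were 258, with 13.6% called in ΔCTCF/ΔMAZ (32.3% over all peaks) and a median fold enrichment of 5.13. Scaled to the depth of ΔCTCF/ΔMAZ the shares called in ΔCTCF/ΔMAZ and ΔMAZ were 23.2% and 24.2%, against 39.6% and 61.1% over all peaks. By the 5th percentile limit they were 32.3% (57.7% over all) and, at the depth of ΔMAZ, 25.9% (73.2% over all). With equal numbers of the strongest RAD21 peaks, which also redefines relocalized sites, 51.0% of members (interval 42.9 to 59.1) and 61.9% of all peaks were called in ΔCTCF/ΔMAZ, and the odds ratio against distal sites without MAZ was 1.68. The MAZ core was in 19.0% of windows reaching 50 bases to each side and 45.9% of those on the MAZ summit. Alternatives chosen after seeing the data scaled the list to the depth of RAD21 WT: the median fold enrichment was then 4.81, and with the 5th percentile limit there were 73 members, 46.6% with MAZ in WT, 37.0% called in ΔCTCF/ΔMAZ, 42.5% in ΔMAZ, 5.48% with CTCF in WT, 24.7% with the core, 54.8% between genes, a median of 6.66 and an odds ratio against sites near starts of 0.667. The odds ratio against distal sites without MAZ was 1.68 to 2.38 over all alternatives. Fewer peaks or a shallower scale define these settings; the cause of each shift was not tested. No paired analysis was possible because a single list was made for every antibody and condition. A missing peak is a value under the caller's limit and not an absence of RAD21, and the depth of the RAD21 libraries, a single knockout clone and 1 list a condition limit every comparison of lists.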

Other observations

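A pair of members lay at Hox clusters, named after their values were known. The site 8.0 kb from the start of Hoxc4 (chr15:103042251-103042537) had RAD21 at 5.13 in ΔCTCF, and the site nearest to Hoxb3 among coding genes, 9.7 kb from its start (chr11:96332918-96333130), had 3.81.

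The 465 MAZ peaks met by a member, of which 455 had a distal summit, and the 1177 distal MAZ peaks without RAD21 were compared for 10 motifs at the MAZ summit, and the interval of the difference left out 0 for CATTGT alone. It was in 11.8% of the former and 7.22% of the latter, a difference of 4.61 points (interval 1.52 to 8.13, not adjusted). The MAZ core was in 45.2% and 50.1% (difference -4.97, interval -10.3 to 0.399), and AAGGTCA in 8.17% and 6.20% (difference 1.97, interval -0.675 to 5.07). CTCF peaks of WT met 1.51% and 1.53%.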
